A study of Vitis vinifera with 45 samples.

Results

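Berry skins of the table grape Crimson Seedless (CS, Vitis vinifera) grown on the rootstock 101-14 (CS/101-14) were compared with berry skins of the same scion grown on the rootstock 110R (CS/110R), both at the stage labelled DAF75, that is, 75 days after flowering. The members are the 6 RNA-seq libraries that the sample labels assign to these graft types at this stage, 3 per rootstock, out of 45 libraries in the series. The series also holds CS on the rootstock SO4 (CS/SO4), graft-free CS and self-grafted CS/CS, each at DAF45, DAF75 and DAF105 with 3 replicates per group. The fruit came from a scion of 1 cultivar, planted at 1 site, and the labels and methods name no other difference between CS/101-14 and CS/110R than the rootstock. Berries were collected for each combination and peeled, in randomized blocks by the methods, which describe 3 biological replicates per stage without saying which vines or blocks supplied which replicate. The p-values below therefore measure the spread between these samples, and nothing in the berry transcripts can check which rootstock lay under a vine.

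In grafted grapevine the rootstock supplies water, minerals and hormones to a scion that keeps its own genome, and rootstocks are known for shifting vigour, berry size and the timing of ripening. The rootstock 101-14 is a hybrid of the American species V. riparia and V. rupestris, whereas 110R is a hybrid of V. berlandieri and V. rupestris and is known for drought tolerance. Red grape skins pass through veraison, when the berry softens, sugar accumulates and anthocyanins are made from phenylalanine through the phenylpropanoid and flavonoid pathways. Skin tissue was taken in bulk, so fewer cells of a type and less RNA per cell cannot be told apart.

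Estimated read counts were used for the tests, and levels are given in TPM, a transcript abundance scaled for length and for the library total. Total counts of the 6 libraries were between 17399761 and 20765329. Replicates correlated at r = 0.9922 to 0.9962 across transcripts in log2 CPM, counts scaled to the library total, and no replicate pair was as alike as sampling noise would make 1 library deposited again (chi-square per degree of freedom 7.593 to 17.14 over the 6 pairs). As a marker of green tissue, the 18 transcripts that the study lists under photosystem terms summed to 885.2, 774.7 and 878.3 TPM in CS/101-14, against 697.9, 839.4 and 845.1 TPM in CS/110R, so the groups overlapped. The 10 most abundant transcripts held 18.4% to 20.1% of TPM in CS/101-14 and 17.8% to 20.4% in CS/110R. Of the 29958 transcript identifiers, 0 were found in the available RefSeq table. A transcript therefore has a name or a function below only where the study gave it a primer name or listed it under a gene ontology (GO) term. The leading digits after VIT_ in each identifier give its chromosome, apart from 00, which stands for unplaced sequence.

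At DAF75, 309 of 17664 tested transcripts (1.75%) differed between CS/101-14 and CS/110R by the criteria used throughout, an absolute log2 fold change over 1 with an adjusted p of at most 0.05. Of these, 111 were higher (0.628% of those tested) and 198 were lower (1.12%) in CS/101-14. The median log2 fold change of all tested transcripts was 0.006, and without a minimum fold change 1173 transcripts passed (418 higher, 755 lower). The median absolute log2 fold change was 1.67 among the 111 higher transcripts and 1.47 among the 198 lower ones, and 41 higher and 59 lower transcripts exceeded 2. In 2 of the higher and 6 of the lower transcripts every library of the group with less held 3 counts or fewer, so their fitted fold changes, the lowest one included, are not bounds. Library values did not overlap between the groups for 110 of the 111 higher and for all 198 lower transcripts, against 33.4% of all tested transcripts. The counts depended on single libraries: without replicate 1 of CS/101-14, 165 transcripts were called (43 higher, 122 lower), and without replicate 3 of CS/110R, 136 were called (44 higher, 92 lower). Without replicate 2 of CS/110R, 68 were higher. Among the original calls, 33 of 111 higher and 71 of 198 lower transcripts passed in all 6 fits that left out a library. A transcript with too few counts for the test in such a fit is counted as not passing, here and below. The sign of every one of the 309 was kept in each of these fits that tested it.

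**Figure D1:**
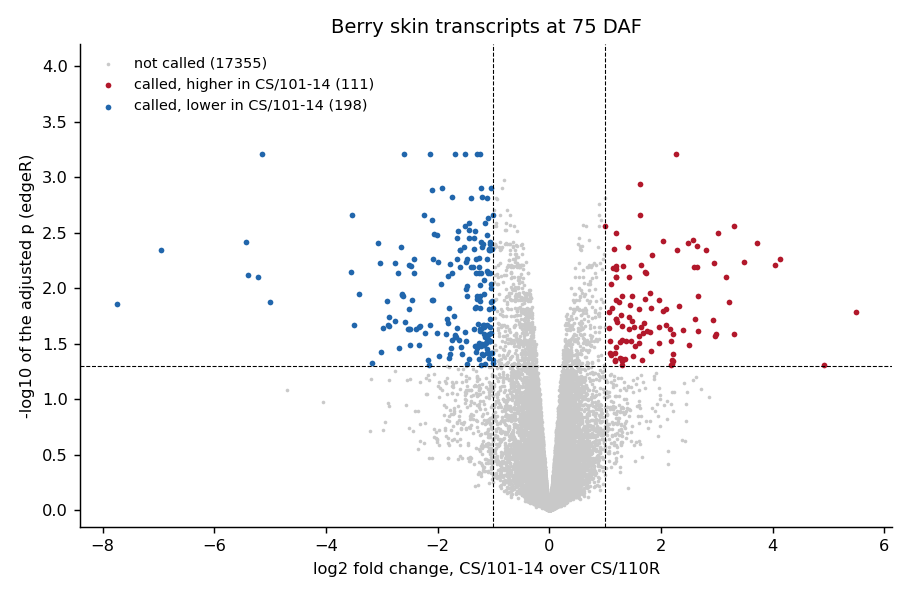
Log2 fold change of each of the 17664 tested transcripts at DAF75 (CS/101-14 over CS/110R, x axis) against the negative log10 of its adjusted p (y axis), with called transcripts in red (111 higher) and blue (198 lower) and the thresholds as dashed lines. The blue cloud is the larger, and its left tail reaches a log2 fold change of -7.74, against 5.49 on the right.

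The 12 transcripts that rose most in CS/101-14, among those with at least 10 TPM there and no overlap between the groups, were 6.22- to 16.5-fold higher. The largest was VIT_19s0085g01050, with 32.1, 9.07 and 22.6 TPM in CS/101-14, against 1.19, 1.63 and 0.839 TPM in CS/110R (log2 fold change 4.05 ± 0.52 (SE), adjusted p = 0.00616). VIT_02s0025g00280 had 17.5, 6.23 and 10.8 TPM in CS/101-14, against 0.722, 1.12 and 0.638 TPM in CS/110R (log2 fold change 3.73 ± 0.40 (SE), adjusted p = 0.00392). VIT_11s0037g00510 had 179.8, 72.9 and 159.9 TPM in CS/101-14, against 10.5, 15.9 and 13.2 TPM in CS/110R (log2 fold change 3.31 ± 0.32 (SE), adjusted p = 0.00277). In each of these 3 transcripts the lowest CS/101-14 library, replicate 2 every time, was still over 4 times the highest CS/110R library. VIT_06s0004g05770 reached the highest level of the 12, with 958, 222 and 1165 TPM in CS/101-14, against 56.2, 149 and 81.5 TPM in CS/110R (log2 fold change 2.97 ± 0.59 (SE), adjusted p = 0.0267). There replicate 2 of CS/101-14 lay nearer to CS/110R than to the other CS/101-14 libraries, and the call held in 2 of the 6 fits that left out a library. The other 8 were VIT_13s0019g03000, VIT_13s0019g02840, VIT_13s0019g02930, VIT_14s0066g01090, VIT_07s0005g01080, VIT_07s0005g01970, VIT_04s0008g01590 and VIT_13s0047g00110.

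CS/101-14 replicate 2 was the lowest of its group in all 12 of these transcripts. Among all 111 higher transcripts it was the lowest of 3 in 61 and was lower than the next library by more than 2-fold in 23, whereas replicate 1 was the lowest in 14 and replicate 3 in 36. Leaving it out gave 264 calls (106 higher, 158 lower). CS/SO4, the rootstock not used in the calls, was below CS/101-14 in all 12 and above CS/110R in 11 of the 12. VIT_11s0037g00510, for example, had 10.8, 9.32 and 19.2 TPM in CS/SO4, overlapping with CS/110R, whereas VIT_06s0004g05770 had 331, 211 and 682 TPM in CS/SO4, above all 3 CS/110R libraries.

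**Figure D2:**
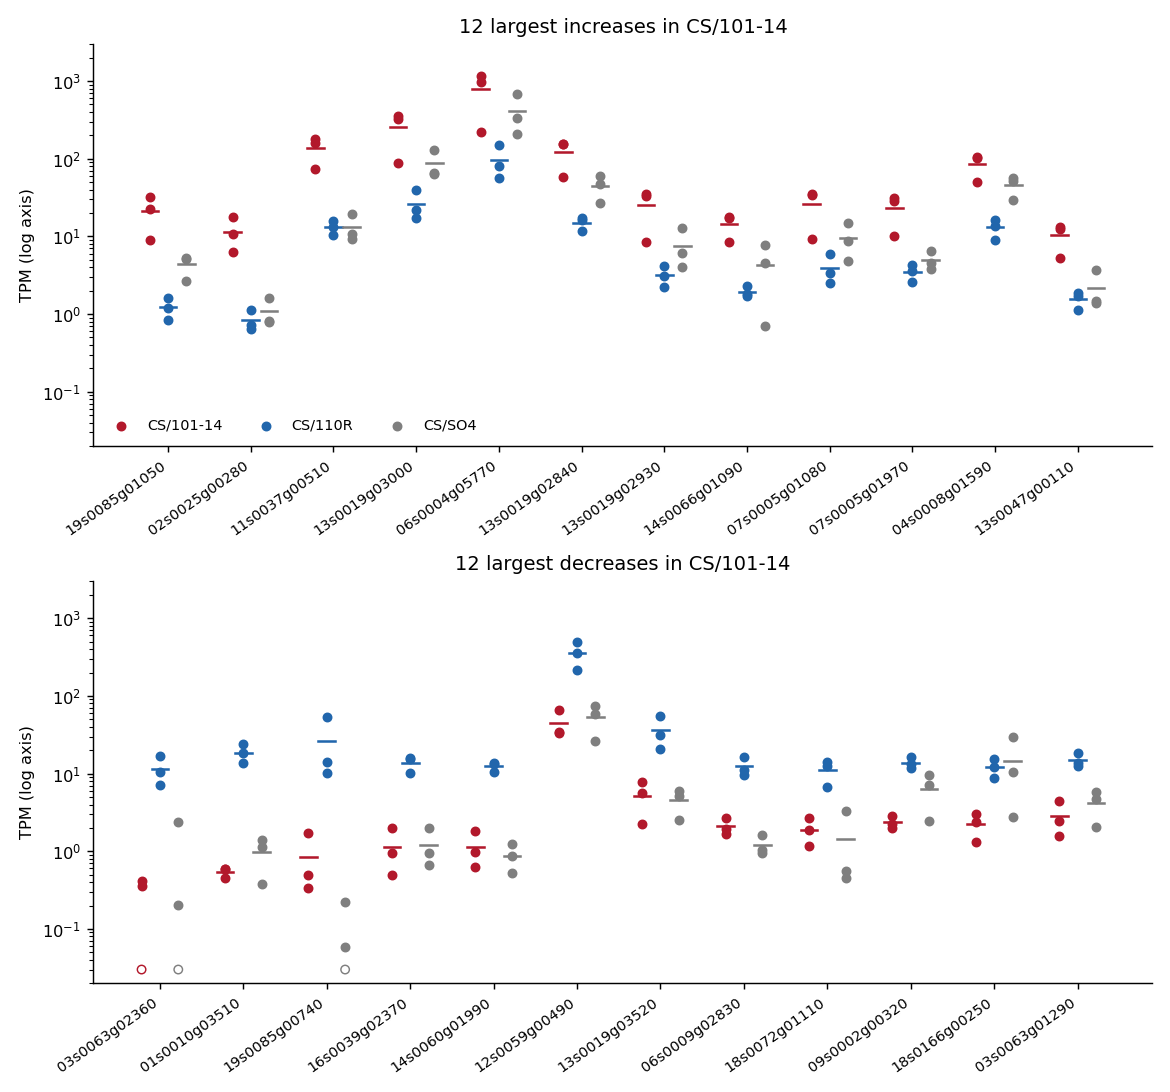
TPM (log axis) of the 12 largest increases (top) and the 12 largest decreases (bottom) in CS/101-14 at DAF75, with 3 points per graft type, CS/101-14 left, CS/110R next and CS/SO4 right. Lines are means, hollow points at the bottom mark libraries listed at 0 TPM, and no mean is drawn where a library is at 0. The points of CS/101-14 and CS/110R do not overlap in any transcript, and in most of the bottom row CS/SO4 sits beside CS/101-14.

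A few very abundant transcripts were also higher in CS/101-14. VIT_19s0090g01350 was among the most abundant transcripts of the skin, with 49570, 46520 and 39100 TPM in CS/101-14, against 20720, 11340 and 14750 TPM in CS/110R (log2 fold change 1.44 ± 0.24 (SE), adjusted p = 0.0142). Its mean in CS/101-14 at DAF75 was 45060 ± 5385 TPM (SD, n = 3), beside 51910 ± 2826 TPM in the same graft at DAF105. In CS/110R the mean was 15600 ± 4747 TPM at DAF75 and 58980 ± 5617 TPM at DAF105. At DAF105 the difference between the grafts did not pass the test (adjusted p = 0.351), and the change of that difference between the stages did (log2 fold change at DAF75 less that at DAF105, 1.65 ± 0.30 (SE), adjusted p = 0.00707). The transcript was chosen for its call at DAF75, so a change in that direction is not independent of the choice. VIT_05s0049g00760 had 4609, 5778 and 3820 TPM in CS/101-14, against 1960, 1920 and 2245 TPM in CS/110R (log2 fold change 1.14 ± 0.15 (SE), adjusted p = 0.00661). It was nearly silent at DAF45, with 2.84 ± 2.02 TPM in CS/101-14 and 1.56 ± 0.147 TPM in CS/110R (SD, n = 3 each). VIT_12s0035g01910 had 901, 682 and 1479 TPM in CS/101-14, against 274, 547 and 328 TPM in CS/110R (log2 fold change 1.35 ± 0.31 (SE), adjusted p = 0.0435). Its call held in 2 of the 6 fits that left out a library, and those of VIT_19s0090g01350 and VIT_05s0049g00760 in 4 and 5.

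The 12 transcripts that fell most in CS/101-14 were 5.6- to 43.0-fold lower, and they included several that were almost absent there. VIT_03s0063g02360 had 0.361, 0.41 and 0 TPM in CS/101-14, against 7.08, 16.7 and 10.4 TPM in CS/110R (log2 fold change -5.43 ± 0.58 (SE), adjusted p = 0.00383). VIT_01s0010g03510 had 0.453, 0.583 and 0.6 TPM in CS/101-14, against 13.5, 23.8 and 18.5 TPM in CS/110R (log2 fold change -5.14 ± 0.26 (SE), adjusted p = 0.000615). VIT_19s0085g00740 had 0.334, 1.71 and 0.495 TPM in CS/101-14, against 14.1, 54.1 and 10.2 TPM in CS/110R (log2 fold change -5.00 ± 0.82 (SE), adjusted p = 0.0134). All 3 were low in every CS/101-14 library and well above that in every CS/110R library, with replicate 2 of CS/110R the highest. The first rested on 4, 4 and 0 counts in CS/101-14, against 66, 154 and 100 counts in CS/110R, so its fold change is poorly bounded. The second had 7, 8 and 8 counts in CS/101-14. The 3 calls held in 3, 3 and 5 of the 6 fits that left out a library. The first 2 could not be tested without a CS/110R library, as fewer than 3 libraries then held 10 counts. Both were called in every fit that tested them. VIT_12s0059g00490 was the most abundant of the 12, with 33.9, 65.4 and 33.8 TPM in CS/101-14, against 216, 488 and 359.5 TPM in CS/110R (log2 fold change -3.07 ± 0.33 (SE), adjusted p = 0.00392). CS/SO4 had 74.4, 59.1 and 26.2 TPM of it, overlapping with CS/101-14. The other 8 were VIT_16s0039g02370, VIT_14s0060g01990, VIT_13s0019g03520, VIT_06s0009g02830, VIT_18s0072g01110, VIT_09s0002g00320, VIT_18s0166g00250 and VIT_03s0063g01290. In 6 of the 12 the CS/SO4 mean was below that of CS/101-14, and in 1, VIT_18s0166g00250, it was above that of CS/110R. The calls of 6 of the 12 held in all 6 fits that left out a library, as did those of 7 of the 12 largest increases.

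These decreases did not share 1 course over development. VIT_03s0063g02360 was most abundant in young berries, with 278 ± 34.7 TPM in CS/101-14 and 395 ± 114 TPM in CS/110R at DAF45 (SD, n = 3 each), and at DAF75 a remnant was left in CS/110R. In graft-free CS it was still at 329.9 ± 68.4 TPM at DAF75 and at 0.316 ± 0.393 TPM at DAF105. VIT_12s0059g00490 took another course and was listed at 0 in every graft-free CS library at DAF75, with 369 ± 480.0 TPM at DAF105, a spread wider than the mean. Its level at DAF105 was 55.4 ± 47.7 TPM in CS/101-14 and 15.1 ± 8.79 TPM in CS/110R, where it had been far higher at DAF75. Of the 12 decreases, 8 rose and 2 fell between DAF45 and DAF105 in graft-free CS, and of the 12 increases, 1 rose and 11 fell. These largest changes do not stand for the full sets. There 57 of the lower calls rose and 79 fell, and 47 of the higher calls rose and 41 fell. Over all transcripts tested in CS across these stages, 16% rose and 21.1% fell.

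The most abundant of the decreases were about 2-fold lower in CS/101-14. VIT_05s0094g00340, which the study lists under cell wall organization or biogenesis, had 8669, 10540 and 12170 TPM in CS/101-14, against 22800, 18860 and 19400 TPM in CS/110R (log2 fold change -1.04 ± 0.15 (SE), adjusted p = 0.00998). VIT_14s0081g00030 had 3110, 3659 and 3716 TPM in CS/101-14, against 9029, 4880 and 6217 TPM in CS/110R (log2 fold change -1.03 ± 0.23 (SE), adjusted p = 0.0381), a call that held in 1 of the 6 fits that left out a library. VIT_14s0030g01230 had 1409, 1743 and 1661 TPM in CS/101-14, against 3410, 3709 and 3633 TPM in CS/110R (log2 fold change -1.24 ± 0.08 (SE), adjusted p = 0.000615), and its call held in all 6. At DAF105 VIT_14s0030g01230 had 1377 ± 458 TPM in CS/101-14 and 1221 ± 205 TPM in CS/110R (SD, n = 3 each).

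Some calls lay side by side on a chromosome. The stretches below were picked for holding at least 4 calls in 1 direction within 10 tested neighbours, and were cut to begin and end on a call. Their counts of calls and of signs are therefore a description and not a test. Among all tested transcripts 0.628% were higher and 1.12% were lower. On chromosome 4, 8 of 9 neighbouring tested transcripts from VIT_04s0008g01490 to VIT_04s0008g01590 were higher in CS/101-14, and all 9 had a positive log2 fold change, with a median of 1.84. VIT_04s0008g01490 had 716, 754 and 1325 TPM in CS/101-14, against 220.1, 238 and 277 TPM in CS/110R (log2 fold change 1.84 ± 0.22 (SE), adjusted p = 0.00498). VIT_04s0008g01580 had 508, 517 and 1016 TPM in CS/101-14, against 176, 349 and 263 TPM in CS/110R (log2 fold change 1.31 ± 0.30 (SE), adjusted p = 0.0436), a call that held in 1 of the 6 fits that left out a library. In both, every CS/101-14 library exceeded every CS/110R library, and replicate 3 of CS/101-14 was the highest. On chromosome 13, 5 of 12 neighbours from VIT_13s0019g02780 to VIT_13s0019g03000 were higher, and the other 7 did not pass (8 of 12 positive, median log2 fold change 1.05). VIT_13s0019g03000 had 324, 88.1 and 351 TPM in CS/101-14, against 17.1, 39.6 and 21.6 TPM in CS/110R (log2 fold change 3.22 ± 0.53 (SE), adjusted p = 0.0133). VIT_13s0019g02850 had 292, 128 and 445 TPM in CS/101-14, against 51, 71.7 and 70.0 TPM in CS/110R (log2 fold change 2.09 ± 0.39 (SE), adjusted p = 0.0214). Replicate 2 of CS/101-14 was again the lowest of its group in both of these, and VIT_13s0019g02850 passed in 2 of the 6 fits without a library.

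In the other direction, 4 of 7 neighbours on chromosome 2 from VIT_02s0025g04280 to VIT_02s0025g04340 were lower in CS/101-14, and all 7 had a negative log2 fold change (median -1.18). VIT_02s0025g04310 had 373, 368 and 389 TPM in CS/101-14, against 1139, 870.3 and 889 TPM in CS/110R (log2 fold change -1.44 ± 0.14 (SE), adjusted p = 0.00259), and VIT_02s0025g04340 had 235, 244 and 256 TPM in CS/101-14, against 603, 454 and 522 TPM in CS/110R (log2 fold change -1.18 ± 0.13 (SE), adjusted p = 0.00397). For both transcripts the 3 libraries of CS/101-14 lay close together and well below CS/110R, and CS/SO4 lay with CS/110R, at 937 ± 65.3 TPM and 540.3 ± 113 TPM (SD, n = 3). On chromosome 6, 4 of 7 neighbours from VIT_06s0009g02830 to VIT_06s0009g03010 were lower in CS/101-14 (median log2 fold change of the 7, -2.25). VIT_06s0009g02830 had 1.67, 2.68 and 1.93 TPM in CS/101-14, against 16.5, 9.46 and 11.1 TPM in CS/110R (log2 fold change -2.66 ± 0.30 (SE), adjusted p = 0.00426), and VIT_06s0009g03010 had 2.01, 3.32 and 2.62 TPM in CS/101-14, against 11.5, 10.7 and 13.6 TPM in CS/110R (log2 fold change -2.25 ± 0.20 (SE), adjusted p = 0.00221). Here CS/SO4 lay with CS/101-14, at 1.21 ± 0.357 TPM and 2.05 ± 0.276 TPM. The 4 named transcripts of these 2 chromosomes passed in all 6 fits that left out a library. Every called member of the 4 stretches (8, 5, 4 and 4) had estimated counts that were not whole numbers, so how reads were assigned to them is uncertain. The source of the fractions and the likeness of the neighbours were not examined. Counts that were not whole marked 29.7% of the higher and 32.3% of the lower calls, against 17.6% of all tested transcripts.

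**Figure D3:**
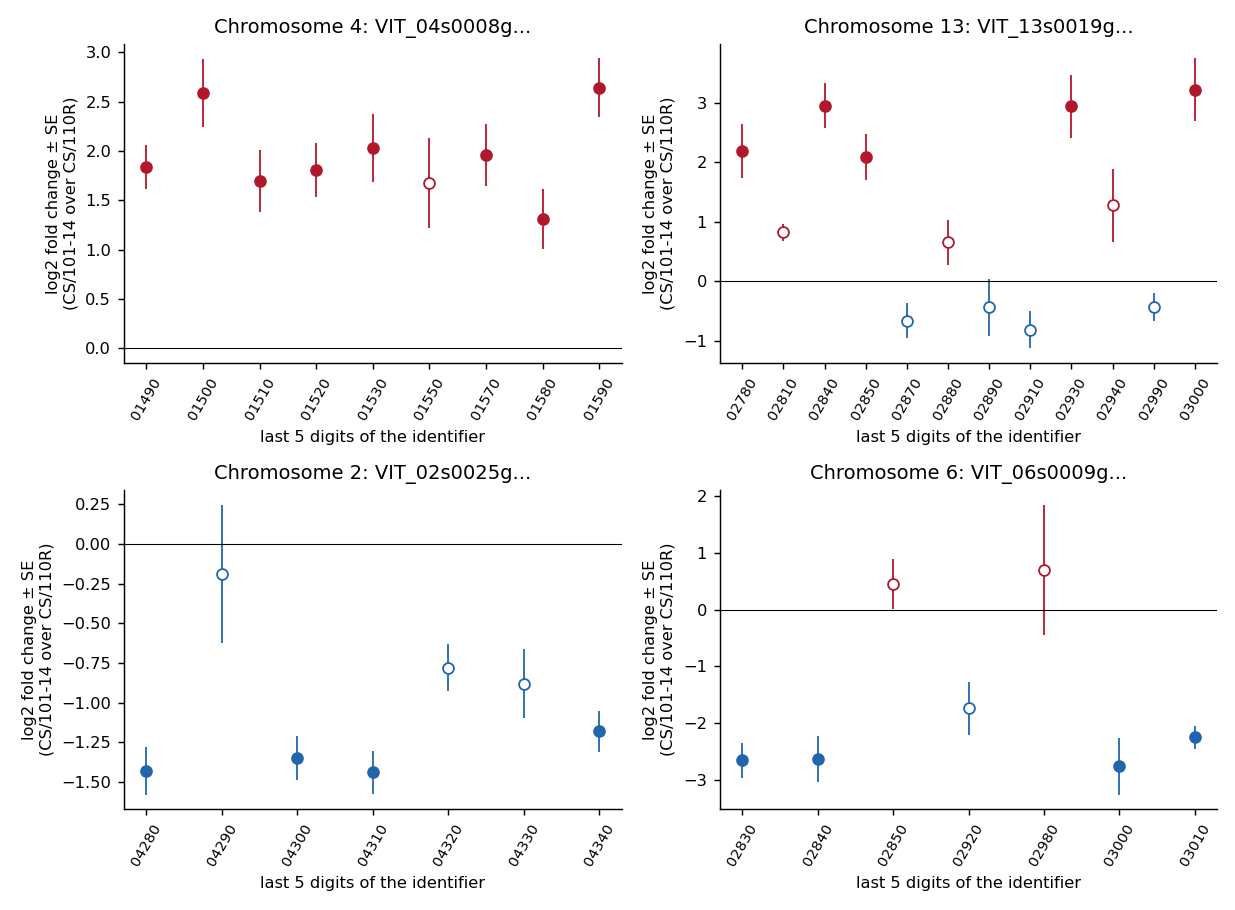
Log2 fold change (CS/101-14 over CS/110R, DAF75) ± SE of neighbouring tested transcripts in 4 stretches, in the order of their identifiers on the x axis, with filled points for called transcripts and hollow points for those not called. All 9 points on chromosome 4 are above 0 and all 7 on chromosome 2 are below it, while the stretches on chromosomes 13 and 6 hold points on both sides.

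Among the 19 genes that the study named for RT-qPCR, 18 could be tested, and 1 was lower and 0 were higher in CS/101-14 (14 negative, 4 positive, median log2 fold change -0.17). Over all tested transcripts 1.12% were lower, and 1 of 18 genes cannot be told from that share. The study chose these genes on data that include these libraries. The lower gene was VIT_15s0046g01140 (WRKY46), of the WRKY family of plant transcription factors, with 16.6, 11.3 and 9.04 TPM in CS/101-14, against 24.8, 21 and 28.3 TPM in CS/110R (log2 fold change -1.08 ± 0.21 (SE), adjusted p = 0.0261). Its call held in 2 of the 6 fits that left out a library. At DAF105 WRKY46 was higher in CS/101-14, at 38.8 ± 19.1 TPM against 10.3 ± 2.94 TPM in CS/110R (SD, n = 3 each; log2 fold change 1.96 ± 0.43 (SE), adjusted p = 0.0459). VIT_09s0018g00240 (WRKY40) had 95.3, 45.1 and 40.2 TPM in CS/101-14, against 58.7, 59.95 and 76.4 TPM in CS/110R at DAF75, overlapping groups (adjusted p = 0.761), and was also higher in CS/101-14 at DAF105, at 66.5 ± 10.8 TPM against 18.1 ± 3.54 TPM in CS/110R (log2 fold change 1.92 ± 0.18 (SE), adjusted p = 0.00564).

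Of the 8 RT-qPCR genes named after steps of the phenylpropanoid and flavonoid pathways, 7 could be tested and 0 were called in either direction. That count is by edgeR, DESeq2 also called 0, and 2 had an unadjusted p under 0.05 at any fold change. By edgeR 1.75% of all tested transcripts were called, and 0 of 7 genes cannot be told from that share. VIT_18s0001g03430 (LDOX, named after leucoanthocyanidin dioxygenase, which forms the coloured anthocyanidins) had 42.4, 47.7 and 18.6 TPM in CS/101-14, against 14.9, 13.6 and 18.1 TPM in CS/110R (log2 fold change 1.15 ± 0.32 (SE), adjusted p = 0.073), with replicate 3 of CS/101-14 beside CS/110R. VIT_05s0094g00350 (CHI, a name the study uses for chalcone isomerase) had 11160, 12750 and 12860 TPM in CS/101-14, against 20080, 16400 and 17720 TPM in CS/110R (log2 fold change -0.64 ± 0.13 (SE), adjusted p = 0.0291), below the minimum fold change. The study's GO table lists it under cell wall organization or biogenesis, as it does its neighbour VIT_05s0094g00340, and whether it encodes chalcone isomerase was not tested here. The identities of LDOX, CHS and the other genes of this group also rest on the study's primer names and were not checked. VIT_18s0001g14310 (F3H, named after flavanone 3-hydroxylase) had 717, 525 and 968 TPM in CS/101-14, against 712, 816 and 697 TPM in CS/110R, overlapping groups. VIT_16s0100g00950 (CHS, named after chalcone synthase) was low, with 2.22, 0.972 and 4.19 TPM in CS/101-14. It overlapped between the groups, as did VIT_11s0052g01090 (4CL1, named after 4-coumarate CoA ligase). The adjusted p was 0.839 for F3H, 0.647 for CHS and 0.594 for 4CL1. VIT_16s0039g01320 (PAL1, phenylalanine ammonia-lyase) had too few counts for the test, with 2.25, 0.795 and 6.04 TPM in CS/101-14, against 1.33, 1.02 and 0.496 TPM in CS/110R.

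No other RT-qPCR gene was called. VIT_06s0004g02560 (ripening-related protein-like) had 6875, 8466 and 8526 TPM in CS/101-14, against 13550, 12130 and 12750 TPM in CS/110R (log2 fold change -0.76 ± 0.12 (SE), adjusted p = 0.0117), so the groups did not overlap but the change was smaller than 2-fold. VIT_02s0033g01330 (ACBP6, named after an acyl-CoA-binding protein) had 3171, 3359 and 3301 TPM in CS/101-14, against 2923, 2599 and 2759 TPM in CS/110R (adjusted p = 0.278). VIT_18s0001g01130 (EXPA11, named after an expansin, a protein that loosens cell walls) had 949, 965 and 1129 TPM in CS/101-14, against 1043, 1196 and 1089 TPM in CS/110R (adjusted p = 0.199), with overlapping groups. VIT_00s0386g00050 (XTH7, a xyloglucan endotransglucosylase/hydrolase by name) had 110.1, 73.3 and 85.6 TPM in CS/101-14, against 88.5, 234 and 222 TPM in CS/110R (log2 fold change -1.07 ± 0.31 (SE), adjusted p = 0.0857), where replicate 1 of CS/110R lay within CS/101-14.

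The study's GO lists were drawn from contrasts of heterografts with CS at DAF75, which hold the libraries compared here. Of its 461 annotated identifiers, 380 were tested, and 12 of these 380 were called (1 higher, 11 lower), beside 0.628% higher and 1.12% lower over all tested transcripts. Under lanosterol synthase activity, a step of triterpene and sterol synthesis, 2 of 3 tested members were lower in CS/101-14 at very low levels, beside 1.12% of all tested transcripts. VIT_09s0054g01360 had 1, 2 and 1 counts in CS/101-14, against 14, 11 and 16 counts in CS/110R (adjusted p = 0.0113), and VIT_09s0054g01230 had 0.224, 0.249 and 0.406 TPM in CS/101-14, against 0.751, 0.77 and 1.26 TPM in CS/110R (log2 fold change -1.74 ± 0.35 (SE), adjusted p = 0.0291). Both had fractional counts, DESeq2 called 1 of the 3 members, and the edgeR calls held in 3 and 2 of the 6 fits without a library. Under phospholipase activity, for enzymes that cleave membrane lipids, 1 of 8 tested members was lower, VIT_18s0001g10830, with 1.19, 0.462 and 1.17 TPM in CS/101-14, against 3.13, 2.09 and 3.84 TPM in CS/110R (log2 fold change -1.76 ± 0.38 (SE), adjusted p = 0.0347; 7 of 8 negative, median log2 fold change -0.264), where 1.12% of all tested transcripts were lower. This call held in 1 of the 6 fits that left out a library. Further lower transcripts with a GO term were VIT_13s0047g00230 and VIT_17s0053g00990 (cell wall organization or biogenesis, the second at 90.8 TPM in CS/101-14 and 196 TPM in CS/110R on average), VIT_02s0087g00720 (receptor kinase signaling), VIT_04s0044g00750 (serine/threonine kinase activity), VIT_13s0019g02300 (signaling) and VIT_10s0116g01780 (plasmodesma). The 1 higher transcript with a term was VIT_04s0023g01290 (transfer of glycosyl groups), at 8.58 TPM in CS/101-14 and 2.44 TPM in CS/110R on average.

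In the other lists edgeR called 0 members, DESeq2 called 1 as lower in each of oligopeptide transport and response to chitin and carbohydrate, and 0 to 4 members of each list had an unadjusted p under 0.05 at any fold change. As edgeR called 1.75% of all tested transcripts, a count of 0 in lists this small cannot be told from that share. The photosystem list had 8 positive and 7 negative members (median log2 fold change 0.03, beside 0.006 over all tested transcripts). All 5 tested members of oligopeptide transport were negative, with a median of -0.58. Auxin mediated signaling (0 of 13), fatty acid biosynthesis (0 of 13), anchored to membrane (0 of 17), regulation of defense response (0 of 10), oxylipin metabolism (0 of 9), response to wounding (0 of 8) and response to chitin and carbohydrate (0 of 8) had medians between -0.185 and 0.0554. The lists of 3 or 4 tested members, for abaxial cell fate, very long-chain fatty acids, ferric iron binding, phosphoenolpyruvate carboxykinase and the mechanically-gated and potassium leak channels, had medians between -0.465 and 0.0501.

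The rootstock difference was next followed to the other stages, in libraries that had no part in the calls at DAF75. At DAF105, 419 of 17381 tested transcripts (2.41%) were called, 363 higher (2.09%) and 56 lower (0.322%) in CS/101-14, so calls at DAF105 were mostly higher in CS/101-14, where those at DAF75 were mostly lower. Of the 198 transcripts lower at DAF75, 165 could be tested at DAF105, and 38 of these (23.0%) had the same sign there, against 44.7% of all 16962 transcripts tested at both stages. Their median log2 fold change at DAF105 was 0.592, with 17 called higher and 3 called lower. Of the 111 transcripts higher at DAF75, 109 could be tested, 47 (43.1%) had the same sign and 3 were called higher again. The count at DAF105 moved between 46 and 679 as single libraries were left out (61 without replicate 1 and 46 without replicate 3 of CS/110R, 114 and 191 without replicates 1 and 2 of CS/101-14, and 679 without its replicate 3).

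**Figure D4:**
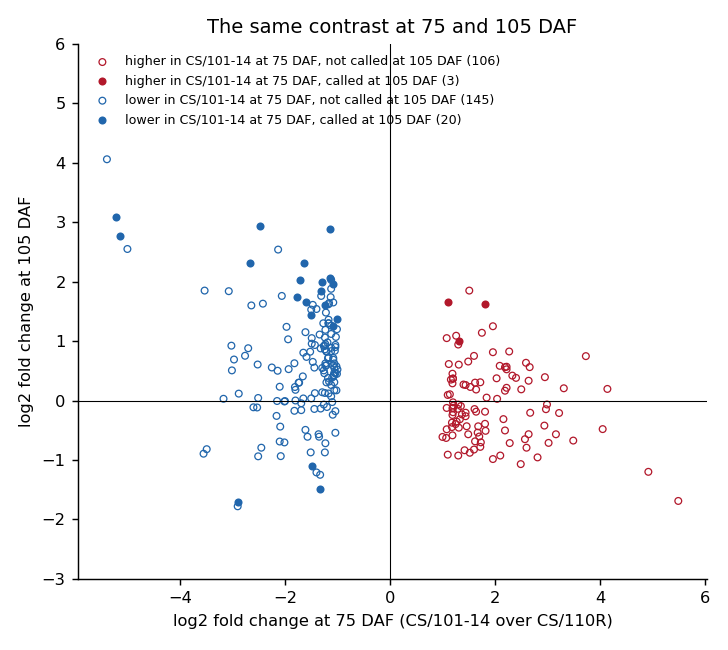
Log2 fold change (CS/101-14 over CS/110R) at DAF75 (x axis) and at DAF105 (y axis) of transcripts called at DAF75 and tested at both stages, with filled points for those also called at DAF105. Most of the 165 blue points lie above 0 on the y axis, while the 109 red points scatter on both sides of it.

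Some transcripts were called in opposite directions at the 2 stages, 17 of the 198 lower ones and 0 of the 111 higher ones. Examples of the 17 follow, chosen for this change. VIT_01s0010g03510, which was so low in CS/101-14 at DAF75, had 4.57, 8.01 and 2.56 TPM in CS/101-14, against 0.962, 0.761 and 0.544 TPM in CS/110R at DAF105 (log2 fold change 2.77 ± 0.49 (SE), adjusted p = 0.0278), so the grafts had changed places. VIT_03s0063g01290 had 1.56, 2.47 and 4.38 TPM in CS/101-14, against 13.6, 18.3 and 12.7 TPM in CS/110R at DAF75 (log2 fold change -2.48 ± 0.33 (SE), adjusted p = 0.00636), and 5.78, 6.39 and 1.6 TPM in CS/101-14, against 0.642, 0.703 and 0.526 TPM in CS/110R at DAF105 (log2 fold change 2.93 ± 0.54 (SE), adjusted p = 0.0313). Tested as an interaction, the difference between the grafts at DAF75 departed from that at DAF105 in 1028 of 18279 transcripts (5.62%). It was higher at DAF75 in 232 (1.27%) and lower in 796 (4.35%). Of the 111 higher and 198 lower transcripts, 66 and 139 were among them in their own direction, a count that uses the DAF75 libraries that also made the calls.

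At DAF45, 650 of 17621 transcripts (3.69%) were called, 405 higher (2.3%) and 245 lower (1.39%) in CS/101-14, but replicate 1 of CS/101-14 stood apart from the others of its group (r = 0.9713 and 0.9848 with them, against 0.9932 between them). Without it 2494 transcripts were called. Leaving out any other library gave 0 to 75 calls by edgeR, with 1365 to 1852 at an unadjusted p under 0.05. Of the 111 transcripts higher at DAF75, 88 could be tested at DAF45 and 59 (67.0%) had the same sign, beside 50.6% of all 16682 tested at both stages, and 4 were called higher. Of the 198 lower ones, 172 could be tested, 86 had the same sign, as many as had the opposite one, 8 were called lower and 4 higher. The difference between the grafts departed from that at DAF45 in 1089 of 18773 transcripts (5.8%), 288 higher at DAF75 (1.53%) and 801 lower (4.27%), and this count was 2588 without replicate 1 of CS/101-14 at DAF45.

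Followed over all stages, the 111 higher transcripts had a median log2(CPM + 1) of 3.67 ± 0.178 in CS/101-14 and 2.13 ± 0.119 in CS/110R at DAF75 (SD, n = 3 libraries each), a gap set by the calls themselves. At DAF105 the medians were 4.09 ± 0.487 in CS/101-14 and 4.4 ± 0.112 in CS/110R. For the 198 lower transcripts they were 2.42 ± 0.127 in CS/101-14 and 3.74 ± 0.105 in CS/110R at DAF75, and 2.33 ± 0.376 in CS/101-14 and 1.88 ± 0.0948 in CS/110R at DAF105. The levels at DAF75 are the values that made the calls, so where they lie between the other stages is not a finding.

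**Figure D5:**
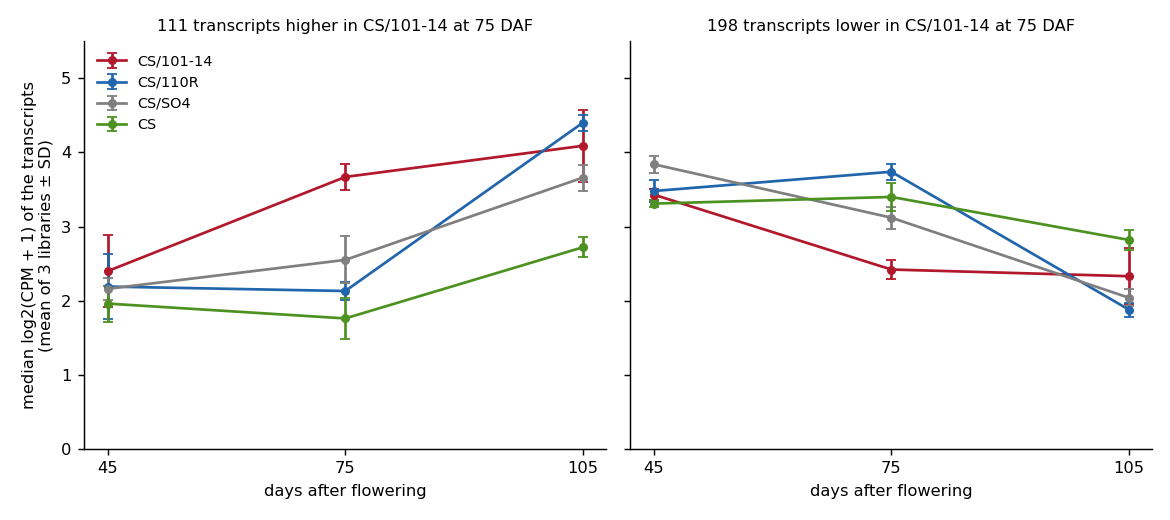
Median log2(CPM + 1) of the 111 transcripts higher (left) and the 198 transcripts lower (right) in CS/101-14 at DAF75, against days after flowering, as the mean of 3 libraries ± SD for CS/101-14, CS/110R, CS/SO4 and graft-free CS. The red and blue lines part at DAF75, where the transcripts were selected, and lie closer together at DAF45 and DAF105.

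The third rootstock and graft-free CS were set beside these groups. CS/SO4 had a mean TPM between CS/101-14 and CS/110R in 88 of the 111 higher and 128 of the 198 lower transcripts, and it was nearer to CS/110R in 65 of the higher and nearer to CS/101-14 in 114 of the lower ones. Tested against CS/SO4 at DAF75, 297 of 17633 transcripts (1.68%) were called for CS/101-14 (142 higher, 0.805%, and 155 lower, 0.879%) and 214 of 17537 (1.22%) for CS/110R (129 higher, 0.736%, and 85 lower, 0.485%), in contrasts that share libraries with the one described here. Among CS/101-14, CS/110R, CS/SO4 and graft-free CS at DAF75, the calls themselves fix the order of CS/101-14 and CS/110R. Choosing transcripts by a wide gap between these 2 also favours places between them for CS/SO4 and graft-free CS. The counts of places, here and above, are therefore a description and not a test. Among the 111 higher transcripts, CS/SO4 had the highest mean of the 4 in 6 (5.41%) and graft-free CS in 9 (8.11%). Graft-free CS had the lowest in 60 of them (54.1%). Among the 198 lower transcripts, graft-free CS had the highest mean in 77 (38.9%) and the lowest in 64 (32.3%). CS/SO4 had the highest in 16 of them (8.08%) and the lowest in 29 (14.6%). Over all tested transcripts, graft-free CS had the highest mean in 41.5% and the lowest in 40.2%, and CS/SO4 in 17.0% and 15.4%.

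The direction of these transcripts during ripening was read from graft-free CS, where 6626 of 17872 tested transcripts (37.1%) changed between DAF45 and DAF105. Of the 111 higher transcripts, 108 could be tested there, 47 rose (43.5%, beside 16% of all) and 41 fell (38.0%, beside 21.1% of all). Of the 198 lower transcripts, 191 could be tested, 57 rose (29.8%) and 79 fell (41.4%). Both sets thus held transcripts that rise and transcripts that fall in ripening, each in a larger share than all tested transcripts.

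A developmental index gave the position of a library between graft-free CS at DAF45 (index 0) and graft-free CS at DAF105 (index 1) over all expressed transcripts. At DAF75 it was 0.82 ± 0.0251 in CS/101-14 and 0.782 ± 0.0407 in CS/110R (SD, n = 3 each). The difference was 0.0371 (p = 0.2, two-sided exact permutation test of the libraries). The smallest p that 3 against 3 libraries can give is 0.1, so this test could not reach 0.05 and decides nothing about the difference. CS/SO4 was at 0.756 ± 0.0278 and graft-free CS at 0.178 ± 0.0424 at DAF75. At DAF105 the index was 0.942 ± 0.0496 in CS/101-14 and 1.01 ± 0.0122 in CS/110R. By this measure both grafts had passed most of the way to the ripe state of graft-free CS at DAF75.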

How the data were processed

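Berry-skin RNA from 45 samples was sequenced, with 3 replicates in each of 15 groups, and the 6 samples of CS/101-14 and CS/110R at DAF75 are the ones compared. According to the methods, the authors trimmed reads with fastp, aligned them with HISAT2 to the 12X grapevine genome of Ensembl Plants, assembled transcripts with StringTie and counted with HTSeq, with versions not given in the sources used here. The deposited estimated counts (expected counts) were not all whole numbers: 87.6% of those above 0 were whole within 1e-06, and all were rounded. TPM, as deposited, sum to 1 common total per library. Totals of 17399761 to 20765329 counts per library leave little counting error for abundant transcripts and much for those with a few counts.

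A transcript was kept with 10 or more counts in 3 or more of the compared libraries, and tested with the quasi-likelihood test of edgeR 4.0.16 in R 4.3.3, with TMM normalization, 1 fit per pair of groups, Benjamini-Hochberg adjustment over all tested transcripts, an adjusted p of at most 0.05 and an absolute log2 fold change above 1, the minimum the study used. The SE of a log2 fold change is its size divided by the square root of the F statistic. Interactions between rootstock and stage were fitted over 4 groups. The developmental index is the projection of a library's log2(CPM + 1) on the axis between the CS means at DAF45 and DAF105. The scripts were tested on simulated data. Alternatives were DESeq2 1.42.0, RLE size factors, other filters, 1 fit of all 45 libraries, a replicate block and leaving out each library.

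Named transcripts were the 12 largest changes in each direction among transcripts that reached 10 TPM on average in the higher group and whose groups did not overlap, the most abundant calls in each direction, 2 members of each stretch of at least 4 calls lying within 10 tested neighbours, and the study's RT-qPCR genes. Transcripts with a GO term that were called are named as well. The comparison, its members and the lists were chosen with earlier results of these data known. Keyword and marker lists other than the photosystem terms could not be used, since none of the identifiers (0) matched the 29591 genes of the reference table. The label of graft-free CS and of self-grafted CS/CS was read with a note in the supplement, and CS/CS was not used in any result.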

Additional observations from a re-analysis of the deposited data

Results flagged for a closer look

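Each transcript named here is one for which the difference between CS/101-14 and CS/110R at DAF75 departed from the same difference at another stage, by the interaction term of an edgeR fit with Benjamini-Hochberg adjustment over all transcripts. Values are log2 differences, the contrast at DAF75 less that at the other stage, from 3 libraries per group. Most of these transcripts were chosen for their contrast at DAF75, so a departure in that direction is not independent of the choice, and no cause was tested. Support is the number of the 12 fits, each without 1 library, in which the departure was still called.

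Against DAF105, the departure held in all 12 fits and the difference was lower at DAF75 for VIT_01s0010g03510 (-7.9), VIT_19s0085g00740 (-7.55), VIT_03s0063g01290 (-5.4), VIT_14s0060g01990 (-5.37), VIT_06s0009g02830 (-4.96), VIT_12s0059g00490 (-4.89), VIT_15s0046g01140 (-3.04), VIT_13s0019g03520 (-2.98), VIT_06s0009g03010 (-2.79), VIT_09s0054g01230 (-2.75), VIT_09s0002g00320 (-2.48), VIT_14s0081g00030 (-2.1), VIT_09s0018g00240 (-2.1), VIT_02s0025g04340 (-1.55), VIT_05s0094g00340 (-1.49), VIT_14s0030g01230 (-1.36) and VIT_02s0025g04310 (-1.29). It held in all 12 fits and was higher at DAF75 for VIT_19s0085g01050 (4.54), VIT_13s0019g03000 (3.45), VIT_04s0008g01590 (3.22), VIT_11s0037g00510 (3.12), VIT_13s0047g00110 (2.31), VIT_04s0008g01490 (1.81) and VIT_19s0090g01350 (1.65). Departures with less support, lower at DAF75, were those of VIT_16s0039g02370 (-2.65, 3 fits), VIT_18s0166g00250 (-2.54, 8 fits) and VIT_06s0004g02560 (-1.21, 10 fits). Those higher at DAF75 with less support were VIT_14s0066g01090 (3.77, 10 fits), VIT_13s0019g02930 (3.37, 11 fits), VIT_06s0004g05770 (3.13, 4 fits), VIT_02s0025g00280 (2.99, 10 fits), VIT_13s0019g02840 (2.58, 4 fits), VIT_18s0001g03430 (2.05, 10 fits) and VIT_05s0049g00760 (1.05, 8 fits). WRKY46 (VIT_15s0046g01140) and WRKY40 (VIT_09s0018g00240) bear the names of regulators among these. LDOX (VIT_18s0001g03430), with 10 fits, bears the name of a pathway step. These are the study's primer names, and what the transcripts encode was not checked.

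Against DAF45, the departure held in all 12 fits and the difference was lower at DAF75 for VIT_06s0004g02560 (-5.94), VIT_03s0063g02360 (-5.07), VIT_13s0019g03520 (-4.66), VIT_01s0010g03510 (-4.11), VIT_18s0072g01110 (-2.91), VIT_02s0025g04310 (-2.88), VIT_06s0009g03010 (-2.53), VIT_02s0025g04340 (-2.49) and VIT_14s0030g01230 (-1.49). Departures with less support, lower at DAF75, were those of VIT_05s0094g00340 (-5.53, 7 fits), VIT_12s0059g00490 (-4.5, 11 fits), VIT_09s0002g00320 (-4.49, 5 fits), VIT_14s0081g00030 (-4.33, 6 fits) and VIT_06s0009g02830 (-2.75, 2 fits). Those higher at DAF75 with less support were VIT_14s0066g01090 (8.72, 3 fits), VIT_02s0025g00280 (3.11, 8 fits) and VIT_13s0047g00110 (2.31, 3 fits). The departures from DAF45 rest on a stage at which replicate 1 of CS/101-14 stood apart.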

How the results depend on the processing

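At DAF75 the 309 calls (111 higher, 198 lower) became 669 (260 higher, 409 lower) at an unadjusted p under 0.05 and 1173 (418 higher, 755 lower) without a minimum fold change. Leaving out 1 library at a time gave 136 to 266 calls, 43 to 106 of them higher and 92 to 185 lower. DESeq2 called 396 (137 higher, 259 lower), and the other counts stayed within 1.5 times: 311 with RLE size factors, 321 without the filter, 289 with a mean of at least 1 TPM, and 270 in 1 fit of all 45 libraries. The split of directions was 78 higher and 192 lower in that last fit. The methods mention randomized blocks but do not tie replicate numbers to them, and the correlations of same-numbered deviations (0.106, 0.15 and -0.15) were mixed in sign, so the numbers were not taken to pair the samples. With a replicate block 231 transcripts were called (76 higher, 155 lower).

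At DAF45 the 650 calls became 1861 with DESeq2 and 821 with a replicate block, and 0 to 2494 with a library left out. At DAF105 the 419 calls became 668 with DESeq2 and 320 with a replicate block, and 46 to 679 with a library left out. The departure of the contrast at DAF75 from that at DAF45 had 1089 calls, 1858 with DESeq2, 705 with a replicate block and 465 to 2588 with a library left out. The departure from DAF105 had 1028 calls, 1254 with DESeq2, 986 with a replicate block and 671 to 1449 with a library left out. Against CS/SO4, leaving out a library gave 94 to 257 calls for CS/101-14, where 297 were made, and 53 to 169 for CS/110R, where 214 were made. In graft-free CS it gave 5832 to 6154 of 6626. The cause of these shifts was not tested. A fit without a library also has fewer libraries, and this was not separated from which library was left out.

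The difference in the developmental index (0.0371) was 0.0295 on log2(TPM + 1), 0.0414 with CPM + 0.5 and 0.0361 over the ripening transcripts that were called, and 0.0178 to 0.0584 with a library left out. The share of lower transcripts with the same sign at DAF105 (23.0%) was 17% to 32.1% with a DAF75 library left out, 26.7% with DESeq2 and 31.5% in 1 fit of all 45 libraries, and that of higher transcripts (43.1%) was 43.3% to 51.2%, 44.7% and 47.3%, alternatives chosen after the data had been seen. The range for higher transcripts spans the 44.7% of all transcripts, so it was not shown to lie above or below it. These shares were not computed without a DAF105 library. All 309 transcripts called at DAF75 kept their sign in every fit without a DAF75 library that tested them.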
